A study of Mus musculus with 36 samples.

Results

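The genes described here are 7 markers of the TREM2-positive foam cell, the lipid-loaded macrophage of atherosclerotic lesions: Trem2, Tyrobp, Gpnmb, Spp1, Cd9, Cd63 and Lgals3. They were chosen by name from what is known of lipid-associated macrophages, with earlier results of these data known. They make up 7 of the 24421 genes counted in each of 36 RNA-seq libraries. All 36 libraries came from mice that lack apolipoprotein E, the baseline controls included, so none has normal lipoprotein clearance. The stages were baseline (chow diet), early (1 month of high cholesterol diet) and advanced (6 months of high cholesterol diet). At each stage, 4 libraries were made from macrophages released from whole aorta with collagenase, 4 from macrophages of peritoneal lavage and 4 from monocytes of blood and spleen, all collected by fluorescence-activated sorting. The series set cells of the lesion beside systemic ones across the course of the disease. Whether each library of a group is from another mouse is not in the labels, so a p-value here measures only how the libraries vary, and that variation may be technical. Whole aortas were digested, so aortic libraries hold the sorted macrophages of every part of the vessel and not of lesions alone, and in such bulk libraries fewer cells of a type and less RNA per cell cannot be told apart.

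TREM2 is a surface receptor of myeloid cells that binds lipids, lipoproteins and debris of dying cells, and it has no signalling tail of its own. It signals through the adaptor DAP12, which Tyrobp encodes and whose phosphorylated activation motif recruits the kinase SYK. In the arterial wall, macrophages that take up cholesterol become foam cells, and a TREM2-positive foamy state with high Gpnmb, Spp1, Cd9, Cd63 and Lgals3 has been described in mouse and human plaques. Gpnmb encodes a transmembrane glycoprotein of endosomes and lysosomes that is known as a target of the MiT/TFE transcription factors. Spp1 encodes osteopontin, a secreted phosphoprotein that binds integrins and CD44. CD9 and CD63 are tetraspanins, membrane organisers of which CD63 is typical of late endosomes, lysosomes and exosomes. Lgals3 encodes galectin-3, a lectin that binds beta-galactosides and has long served as a macrophage marker under the name Mac-2.

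Each member is a protein-coding gene in RefSeq's annotation of GRCm38.p6. Trem2 lies at chr17:48346401-48352276, Tyrobp at chr7:30413782-30417582, Gpnmb at chr6:49036518-49058182, Spp1 at chr5:104435111-104441053, Cd9 at chr6:125460266-125494760, Cd63 at chr10:128896231-128912822 and Lgals3 at chr14:47373860-47386167. RefSeq's promoter table matched 6 of the 7 members, all but Tyrobp. The 250 bases before the start are printed for the 2 members whose aortic level differed most between stages, Gpnmb and Spp1, and for the receptor that names the state, Trem2. Capitals mark the match to 1 of 4 searched motifs, and all sequences run 5′ to 3′ along the gene's own strand, which is the plus strand for these 3 genes.
Gpnmb chr6:49036268-49036517: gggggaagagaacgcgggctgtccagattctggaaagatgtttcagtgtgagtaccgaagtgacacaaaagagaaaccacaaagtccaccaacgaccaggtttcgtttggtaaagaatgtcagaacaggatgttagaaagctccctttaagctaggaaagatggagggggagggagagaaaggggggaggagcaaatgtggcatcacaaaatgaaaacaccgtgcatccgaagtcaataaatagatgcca
Spp1 chr5:104434861-104435110: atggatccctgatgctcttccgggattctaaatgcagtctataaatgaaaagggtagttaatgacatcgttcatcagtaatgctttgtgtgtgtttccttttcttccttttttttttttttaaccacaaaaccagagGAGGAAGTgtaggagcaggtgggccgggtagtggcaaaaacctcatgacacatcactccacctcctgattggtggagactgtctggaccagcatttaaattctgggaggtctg
Trem2 chr17:48346151-48346400: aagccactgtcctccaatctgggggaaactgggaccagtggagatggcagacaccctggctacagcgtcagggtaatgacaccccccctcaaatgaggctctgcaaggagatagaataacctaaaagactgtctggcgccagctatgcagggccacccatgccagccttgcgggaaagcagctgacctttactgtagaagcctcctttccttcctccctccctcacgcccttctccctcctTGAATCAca

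The motifs, searched on both strands, were the E-box CACGTG and the M-box CATGTG read by MiT/TFE factors, the AP-1 site TGANTCA and the PU.1 site GAGGAAGT. Among 32851 promoter windows of the same length, 6.02% held CACGTG, 12.3% CATGTG, 6.75% TGANTCA and 2.44% GAGGAAGT. The Trem2 window held TGAATCA from base 9 to base 3 before the start. The first Spp1 start had GAGGAAGT from base 113 to base 106 before it, and the Cd9 window had 1 M-box, read on the other strand as CACATG, from base 38 to base 33. No match lay in the windows of Gpnmb, Cd63 and Lgals3 or of a second Spp1 start. A match describes these letters and is not a binding site, and a window without one says only that these letters are not in it.

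Baseline libraries were the deeper ones: early and advanced libraries held 942899 to 2628766 counted reads, against 5278901 to 14771799 in baseline libraries, so in every comparison with baseline the stage and the depth cannot be told apart. All 8 macrophage markers were counted in every group, and their summed level was 9100.2 to 12862, 10523 to 13488 and 10076 to 11482 reads per 1000000 counted reads (CPM) in baseline, early and advanced aorta. Reads of Apoe, the disrupted gene, were still counted at a mean of 54.5 CPM in advanced and 20.4 CPM in baseline aorta, so its counts do not check the genotype, the deleted part of the gene not being named in the labels. Some libraries stood apart from their group. The median rank correlation with the others of the group was 0.8, 0.788, 0.788 and 0.732 in aortic baseline libraries 1 to 4. It was 0.851 in aortic advanced library 1, against 0.945 to 0.946 in the other advanced aortic ones. Aortic baseline libraries 3 and 4 had 7790 and 7565 genes with reads, against 10163 and 10102 in libraries 1 and 2. By correlation, library 3 did not stand apart from library 2. Which libraries to leave out as standing apart was chosen after seeing the data. Peritoneal early libraries 1 and 2 had 1129.6 and 1534 CPM of monocyte markers in sum, against 78.4 to 107 CPM in libraries 3 and 4. In monocyte advanced library 3, neutrophil markers summed to 31679 CPM.

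**Figure D1:**
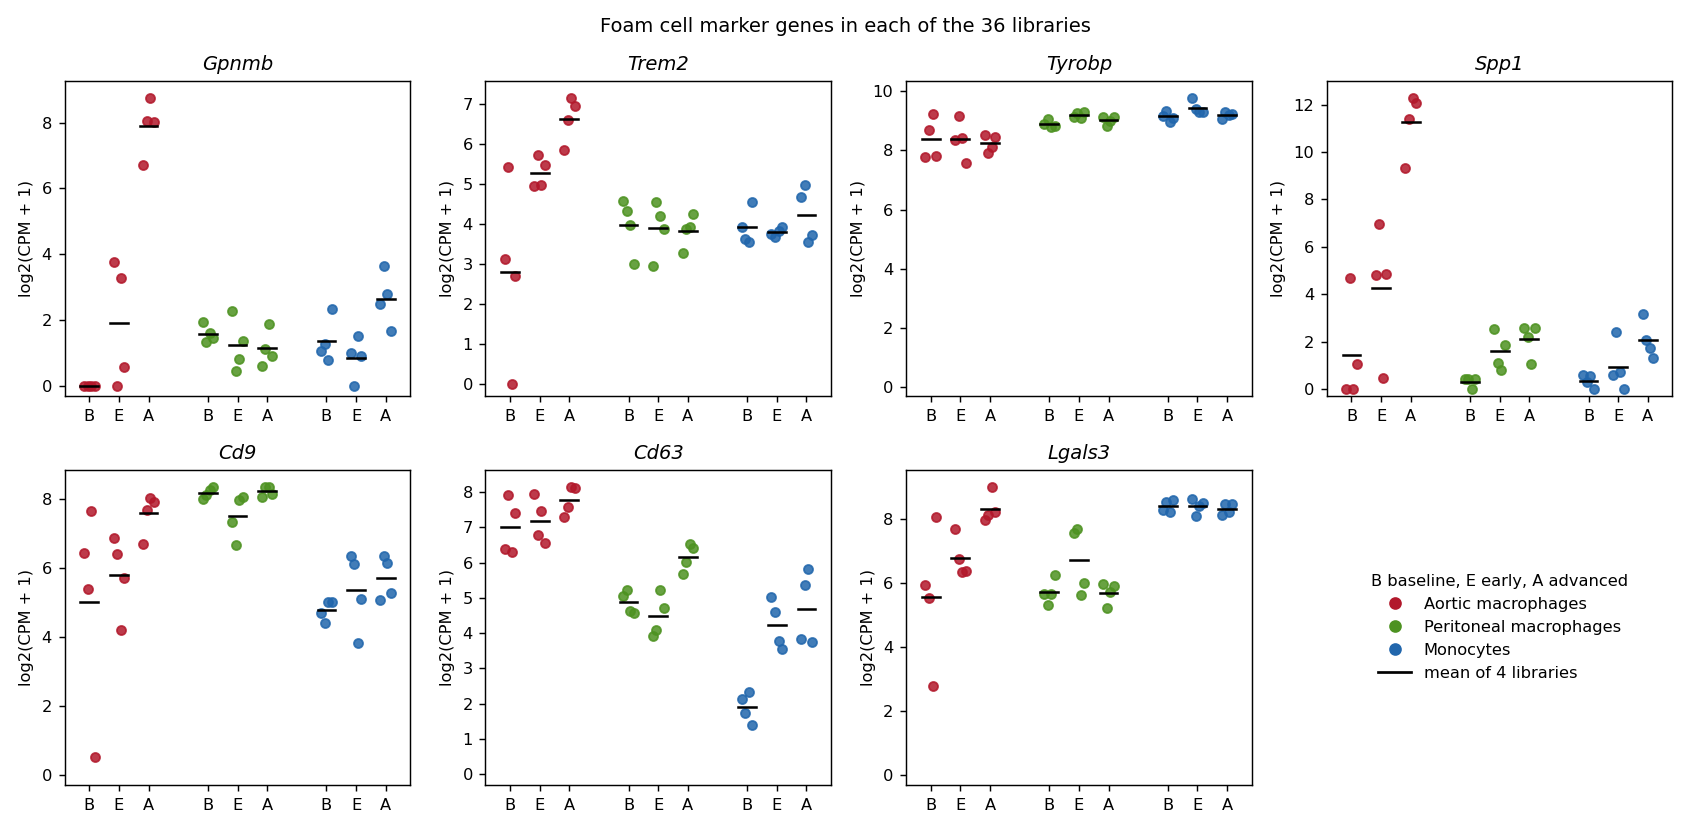
Level of each of the 7 genes in all 36 libraries, as log2(CPM + 1), with 1 point per library and a bar at the mean of the 4 libraries of a group (B baseline, E early, A advanced). Gpnmb was at 0 in the 4 aortic baseline libraries and between 104 and 425 CPM in the 4 advanced aortic ones, and Spp1 was between 641 and 4901 CPM in those advanced ones.

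In aortic macrophages, Gpnmb and Spp1 were far higher at the advanced stage than at baseline, while the Tyrobp levels of all 3 stages overlapped. All 7 members passed the filter on low counts in the aortic libraries, and Gpnmb would not have passed it without the advanced ones, the group where it is high. Between advanced and baseline aorta, 2 of the 7 rose (adjusted p under 0.05, Benjamini-Hochberg over 9920 genes) and none fell, where 0.534% of all genes tested were higher and 0.0504% lower. Gpnmb, 1 of these 2, is counted through the group where it is high. The members were chosen with earlier results of these data known. A count of members above such a share is therefore a description and not support, here and in every later comparison. Between early and baseline aorta 1 of 7 rose, Gpnmb, against a background of 0.312% higher and 0.0605% lower. Between advanced and early aorta no member passed with edgeR, where 0.0302% of genes were higher and 0.0101% lower, although 3 members had an unadjusted p under 0.05 and DESeq2 called 1. The median log2 fold change of the 7 was 0.35, 1.496 and 1.85 for early over baseline, advanced over early and advanced over baseline, beside -0.02, -0.02 and -0.04 over all genes. Medians that include baseline are the same with Gpnmb set at its bound. These 3 comparisons share libraries.

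The receptor and its adaptor had different patterns. Trem2 had 7.7, 42.1, 0 and 5.57 CPM in baseline aortic libraries 1 to 4, 30.0, 52.6, 30.4 and 44.1 CPM in early ones and 56.8, 96.1, 141 and 124 CPM in advanced ones. All advanced libraries lay above all early and all baseline ones, whereas early and baseline overlapped through baseline library 2. The log2 fold change of advanced over baseline was 3.08 ± 1.064, adjusted p = 0.23, and of advanced over early 1.4196 ± 1.01, adjusted p = 0.9997, so neither passed. Tyrobp had 216, 413, 596 and 221 CPM at baseline, 323, 573, 339 and 188 CPM at the early stage and 363, 238, 273 and 350.4 CPM at the advanced stage, with overlap between every pair of stages. Its log2 fold change of advanced over baseline was -0.12 ± 0.35, adjusted p = 0.9997. DESeq2 and one fit of all 36 libraries called Trem2 between advanced and baseline aorta (adjusted p = 0.038 and 0.00304), and the other alternatives did not, with an adjusted p of up to 0.257.

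Within a library, Trem2 reads can be set against Tyrobp reads, which takes out the scaling between libraries. Aortic libraries had 3.56, 10.2, 0 and 2.52 Trem2 reads per 100 Tyrobp reads at baseline, 9.28, 9.18, 8.98 and 23.4 at the early stage and 15.6, 40.3, 51.8 and 35.3 at the advanced stage. The lowest advanced library lay above every baseline library but below early library 4. Peritoneal libraries of all stages lay between 1.22 and 4.85, and monocyte libraries between 1.46 and 4.87, so the advanced aortic libraries were all above every library of the other 2 populations. The quantity is a ratio of reads of genes of different length and not of molecules, and is given as a description.

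**Figure D2:**
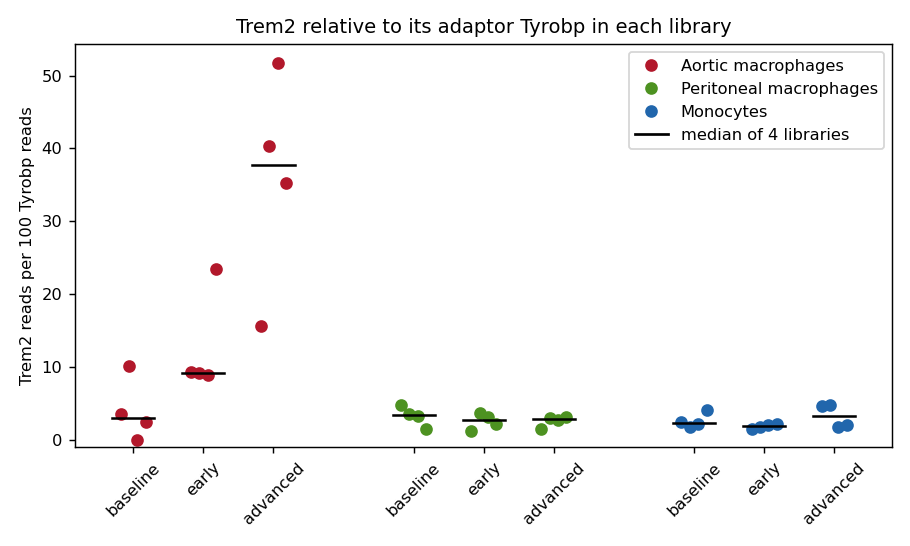
Trem2 reads per 100 Tyrobp reads in each library, by population and stage, with a bar at the median of 4 libraries. Advanced aortic libraries ran from 15.6 to 51.8, and no monocyte or peritoneal library exceeded 4.87.

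Gpnmb was the member with the highest advanced aortic level relative to its own baseline. It had no read in any of the 4 baseline aortic libraries, 12.7, 0, 8.75 and 0.501 CPM in the early ones (counts of 25, 0, 23 and 1) and 104, 266, 425 and 258 CPM in the advanced ones (counts of 112, 570, 1021 and 637). Early library 2 was at 0 like baseline, and all advanced libraries lay above all early ones. Over the 32689479 baseline reads, a count of 0 allows up to 0.0918 CPM (3 counts over the group, counting error only). Against that floor the mean level was at least 59.8-fold higher in early than in baseline aorta, and at least 2869-fold higher in advanced than in baseline aorta. Adjusted p was 0.0126 for early and 8.41e-05 for advanced against baseline. Gpnmb entered these tests only through the advanced libraries, where it is high, so its p-values between aortic stages are given as a description. Advanced over early, the ratio of means was 48 and the log2 fold change 5.56 ± 0.98, adjusted p = 0.0554. The early call was lost with limma-voom quality weights (adjusted p = 0.634) and at equal depth (adjusted p = 0.119), the advanced call against baseline with quality weights alone (adjusted p = 0.0583), and advanced against early passed under 5 of the 8 alternatives that gave an adjusted p (1.17e-09 to 0.081 over all) or when aortic baseline library 2, 3 or 4 was left out (down to 0.00718). Without the aortic libraries that stood apart (baseline 3 and 4 and advanced 1), adjusted p was 0.0244 for early over baseline, 0.00439 for advanced over early and 3.08e-04 for advanced over baseline.

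Spp1, the osteopontin gene, had the highest advanced level relative to its own baseline after Gpnmb. Its level was 0, 24.6, 0 and 1.07 CPM at baseline, 27.4, 123, 0.38 and 28.1 CPM at the early stage and 641, 2660.0, 4901 and 4231 CPM at the advanced stage. The 205 reads of baseline library 2 made up nearly all baseline reads, and early library 3 stood with the low baseline ones, but advanced libraries lay above all others. Mean levels were 3108 ± 1894 CPM in advanced and 6.42 ± 12.1 CPM in baseline aorta (SD, n = 4 each), a log2 fold change of 9.07 ± 1.51, adjusted p = 0.00446. Early over baseline it was 2.89 ± 1.17, adjusted p = 0.354, and advanced over early 6.18 ± 1.33, adjusted p = 0.162. Without baseline library 2 the log2 fold change over baseline was 12.88 for the advanced stage and 6.69 for the early stage, which then passed (adjusted p = 0.0312). The advanced call against baseline was lost with quality weights alone (adjusted p = 0.393), and the difference between advanced and early passed under 7 of 9 alternatives and without aortic baseline library 2 or 4 (down to 0.0284). Without the libraries that stood apart, advanced over baseline had a log2 fold change of 8.54 (adjusted p = 0.0163).

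The tetraspanin genes and Lgals3 did not pass the test between any 2 aortic stages. Cd9 had 86.5, 41, 201 and 0.429 CPM at baseline, 117, 84.6, 17.5 and 51.1 CPM at the early stage and 104, 207, 265 and 244 CPM at the advanced stage. Cd63 had 82.9, 240.1, 78.2 and 167, then 247, 109, 176 and 92.7, then 156, 189, 281 and 278 CPM at these stages, and all its groups overlapped. For Cd9 the baseline libraries were far apart, library 4 being close to 0 and library 3 at the level of the advanced ones. The log2 fold change of advanced over baseline was 1.47 ± 0.87, adjusted p = 0.748 for Cd9 and 0.78 ± 0.43, adjusted p = 0.69 for Cd63. Lgals3, the galectin-3 gene, had 60.0, 45.5, 5.87 and 266 CPM at baseline, 203, 107, 80.6 and 81.6 CPM at the early stage and 249.7, 279, 509 and 293 CPM at the advanced stage. All advanced libraries lay above all early ones, and baseline library 4 reached into the advanced range. Its log2 fold change of advanced over baseline was 1.85 ± 0.70, adjusted p = 0.32, and 3.34 without baseline library 4, where it passed (adjusted p = 0.00244). It also passed without all aortic libraries that stood apart (2.98, adjusted p = 0.00267), without a filter (0.00837), with quality weights (0.0475) and in one fit of all 36 libraries (0.0167). For advanced over early, Cd9 and Lgals3 passed with quality weights (adjusted p = 0.0161 and 0.0361).

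Markers of other aortic cells differed between the stages too. The summed level of 7 fibroblast markers was 56.8, 287, 144 and 8.89 CPM in baseline libraries 1 to 4, 781, 1058, 510.1 and 951 CPM in early ones and 379, 331, 140.2 and 147 CPM in advanced ones, with all 7 counted at each stage. Smooth muscle markers ran from 0 to 16.1 CPM at baseline, 1.5 to 219 CPM at the early stage and 0 to 28.7 CPM at the advanced stage. The highest sums of both lists were in early libraries, whereas Gpnmb, Spp1 and Trem2 were highest in advanced ones. The 6 neutrophil markers counted in the files summed to 0 to 16.2 CPM at baseline, 77.6 to 204 CPM at the early stage and 0 to 3.75 CPM at the advanced stage, with S100a8 and Mmp8 at 0 in early libraries, and 5 dendritic cell markers to 118 to 350.1, then 60.0 to 119, then 47.5 to 126 CPM. Melanocytes also express Gpnmb. Of 5 of their markers none was counted at baseline. The sum reached at most 2.00 CPM at the early and 0.933 CPM at the advanced stage, with Mlana, Tyr and Tyrp1 at 0 in both. The part of fibroblasts, smooth muscle cells, neutrophils, dendritic cells and melanocytes in the members' values was not tested.

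**Figure D3:**
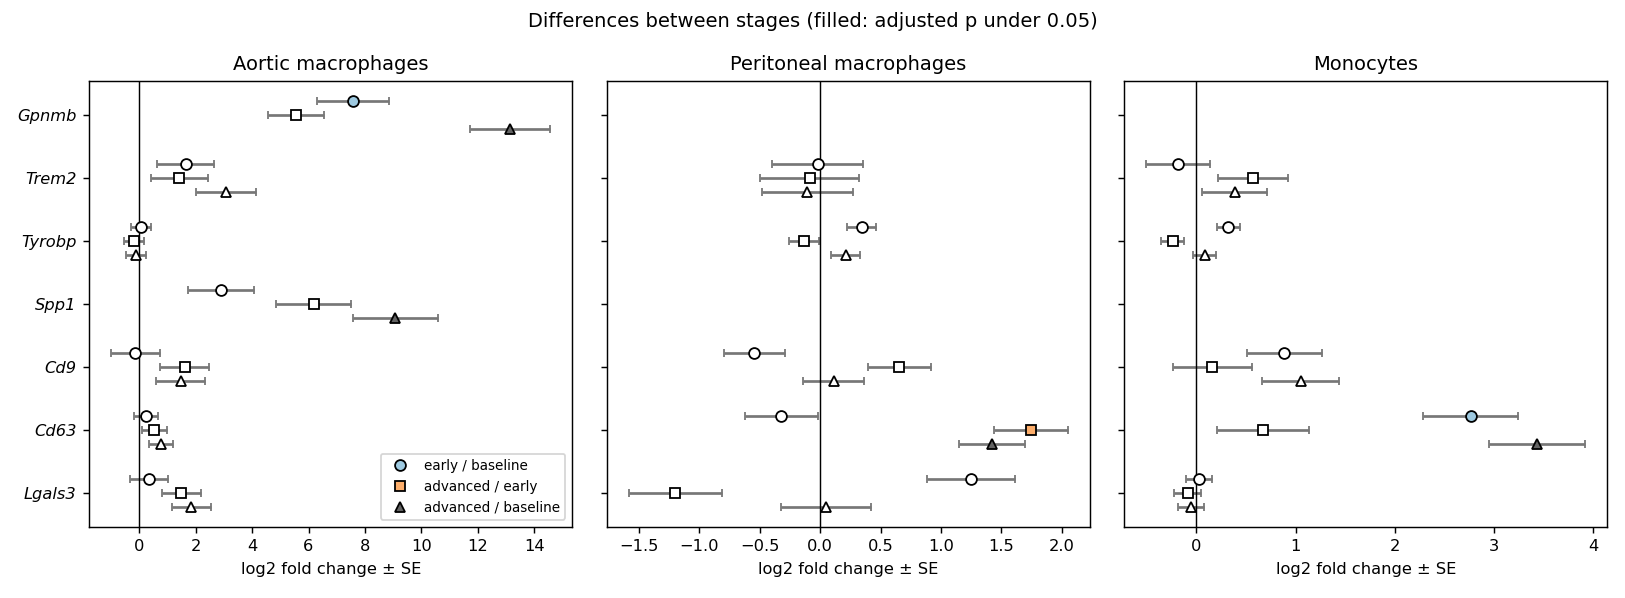
Log2 fold change ± standard error between stages for each gene, in aortic macrophages, peritoneal macrophages and monocytes, with filled symbols where adjusted p was under 0.05 and an axis range of its own for each panel. Gpnmb and Spp1 were too low to be tested in the last 2 populations, where Cd63 is the only filled gene.

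In peritoneal macrophages, Cd63 was the single member tested that rose at the advanced stage. Gpnmb and Spp1 did not pass the filter on low counts, which left 5 of 7 members. Gpnmb lay between 0.391 and 3.89 CPM and Spp1 between 0 and 4.97 CPM over the 12 libraries. By stage, Spp1 lay at 0 to 0.349 CPM at baseline, 0.762 to 4.86 CPM at the early stage and 1.09 to 4.97 CPM at the advanced stage. Its baseline libraries thus did not overlap with those of either later stage, from only 12, 19 and 28 reads per group. Cd63 had 32.3, 36.2, 23.8 and 22.7 CPM at baseline, 14.1, 16, 36.6 and 25.4 CPM at the early stage and 50.3, 63.6, 90.9 and 84.6 CPM at the advanced stage, so that every advanced library lay above all others. The log2 fold change was 1.74 ± 0.31, adjusted p = 0.0202 for advanced over early and 1.422 ± 0.27, adjusted p = 0.03 for advanced over baseline. That is 1 of 5 members tested, where 0.522% of 9575 genes rose between advanced and early, and 0.512% rose and 0.386% fell between advanced and baseline. Between early and baseline no member passed with edgeR, against 1.79% of genes in either direction, while 3 had an unadjusted p under 0.05 and DESeq2 called 2.

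The Cd63 calls rested on few libraries. Advanced against early did not pass without peritoneal early library 2 or advanced library 2, 3 or 4 (adjusted p up to 0.0884) or without both early libraries that stood apart (0.0662). Advanced against baseline did not pass without any 1 of the 4 baseline libraries or advanced library 3 or 4 (up to 0.144), nor in one fit of all 36 libraries (1). Without the early libraries that stood apart its adjusted p was 0.00161.

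Galectin-3 and CD9 transcripts marked out the 2 peritoneal early libraries that stood apart. Lgals3 had 188, 205, 48 and 62.5 CPM in early libraries 1 to 4, against 36.6 to 61.2 CPM at the advanced stage and 38.7 to 74.7 CPM at baseline. Cd9 had 160.3, 100.5, 251 and 269 CPM in the early libraries, with 266 to 328 CPM in advanced and 259.6 to 328 CPM in baseline ones. Libraries 1 and 2 were thus high in Lgals3 and low in Cd9, while libraries 3 and 4 sat within or near the other stages. In early libraries 1 to 4, the 8 monocyte markers summed to 1129.6, 1534, 107 and 78.4 CPM and the 8 markers of large peritoneal macrophages to 10666, 6138, 19673 and 17711 CPM. The part of these cells in the result was not tested. Early over baseline, the log2 fold change was 1.25 ± 0.36, adjusted p = 0.0836 for Lgals3 and -0.55 ± 0.25, adjusted p = 0.236 for Cd9. Lgals3 passed without early library 3 or 4 (down to adjusted p = 0.0238), and advanced against early passed without early library 3 (0.0428).

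Neither gene of the receptor pair passed the test in the peritoneum. Trem2 had 23, 19, 14.9 and 6.99 CPM at baseline, 6.8, 22.7, 17.5 and 13.8 CPM at the early stage and 8.74, 13.8, 14.2 and 18.1 CPM at the advanced stage, and its groups overlapped. Advanced over baseline, its log2 fold change was -0.11 ± 0.38, adjusted p = 0.928. Tyrobp lay at 442 to 527, 548 to 623 and 454 to 562 CPM at baseline, early and advanced stages. All early libraries exceeded all baseline ones, with a log2 fold change of 0.34 ± 0.12, adjusted p = 0.14, which passed with DESeq2 (0.0474) and with quality weights (0.0404).

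In monocytes 1 member rose already at the early stage, and it was Cd63, the gene that rose in the advanced peritoneum. It had 3.4, 2.31, 4.06 and 1.65 CPM at baseline, 31.2, 23.1, 12.6 and 10.6 CPM at the early stage and 13.2, 40.3, 55.8 and 12.3 CPM at the advanced stage. No early or advanced library overlapped with baseline. The log2 fold change was 2.76 ± 0.48, adjusted p = 0.00249 for early over baseline and 3.43 ± 0.49, adjusted p = 4.45e-04 for advanced over baseline. It passed in all 12 fits that left out 1 library (adjusted p up to 0.0149 and 0.00216) and under every alternative, equal depth and the fit without monocyte advanced library 3 included (adjusted p up to 0.00552 and 0.00191). No monocyte baseline library reached the filter's minimum of 4.88 CPM. The gene came past the filter through the early and advanced libraries, the groups where it is high. Its p-values against baseline, and its passing in further fits, are thus given as a description. Cd63 was 1 of 5 members tested, in a population where 5.74% of 9465 genes rose between early and baseline, and 9.24% rose and 9.75% fell between advanced and baseline. Between advanced and early no member passed with edgeR or DESeq2 or had an unadjusted p under 0.05, where 2.05% of genes passed in either direction.

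Cd9 had 25.1, 20.1, 31.5 and 31.5 CPM in monocytes at baseline, 80.6, 69.4, 13.2 and 33.6 CPM at the early stage and 33.1, 80.6, 70.0 and 37.8 CPM at the advanced stage. All advanced libraries lay above all baseline ones, and early library 3 fell below them. Its log2 fold change over baseline was 0.89 ± 0.38, adjusted p = 0.147 at the early stage and 1.05 ± 0.39, adjusted p = 0.0714 at the advanced stage, and both passed without monocyte early library 3 (adjusted p = 0.0231 and 0.0265). Neutrophil and platelet markers were present in the same libraries. The 6 neutrophil markers counted in the files summed to 482, 211, 542 and 230.0 CPM in baseline libraries 1 to 4, 11653, 8726, 2919.7 and 7236 CPM in early ones and 5831, 11785, 31679 and 4075 CPM in advanced ones, all 6 with reads at each stage. The 4 advanced libraries had the same order in Cd63 and in this sum, and in the 4 early ones only libraries 3 and 4 changed places. The 6 platelet markers, of cells known for CD9 and CD63, summed to 29, 25.2, 19.2 and 63.6, then 98.7, 51, 6.3 and 17.3, then 90.7, 45.6, 16 and 52.3 CPM at the 3 stages. Cd9 and this platelet sum had the same order in the 4 early libraries, and not in the baseline or the advanced ones. The part of neutrophils and platelets in the Cd63 and Cd9 values was not tested.

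Trem2, Tyrobp and Lgals3 did not pass the test between monocyte stages. Trem2 had 14.4, 11.3, 10.8 and 22.6 CPM at baseline, 12.6, 11.8, 13.2 and 14.2 CPM at the early stage and 24.5, 30.8, 10.7 and 12.3 CPM at the advanced stage, with a log2 fold change of advanced over baseline of 0.39 ± 0.32, adjusted p = 0.441. Tyrobp had 864, 678, 623 and 628 CPM at the early stage and 573, 644, 501 and 552 CPM at baseline, which overlap, and 530.1 to 631 CPM at the advanced stage. Early over baseline it had a log2 fold change of 0.32 ± 0.11, adjusted p = 0.0779, which passed with DESeq2 alone (0.0353). Lgals3 lay between 274 and 395 CPM in all 12 monocyte libraries. Gpnmb and Spp1 were too low to be tested: Gpnmb had 4.63, 11.7, 5.93 and 2.18 CPM at the advanced stage and 1.01, 0, 1.89 and 0.885 CPM at the early stage, which do not overlap, and Spp1 had 7.94, 3.18, 2.37 and 1.45 CPM at the advanced stage and 0.498, 0.22, 0.474 and 0 CPM at baseline, which do not overlap either.

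Set against the other populations, advanced aortic macrophages had more Gpnmb, Spp1 and Cd63 than either. At the advanced stage, Gpnmb was at 263 ± 131 CPM in the aorta, 1.34 ± 0.958 CPM in the peritoneum and 6.1 ± 4.02 CPM in monocytes (SD, n = 4 each). Spp1 was at 3108 ± 1894, 3.65 ± 1.82 and 3.74 ± 2.89 CPM in the same order of populations, and Cd63 at 226 ± 63.6, 72.3 ± 18.8 and 30.4 ± 21.3 CPM. The aorta exceeded both others in all 4 libraries for each of these genes, while monocytes and peritoneum overlapped for Gpnmb and Spp1.

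**Figure D4:**
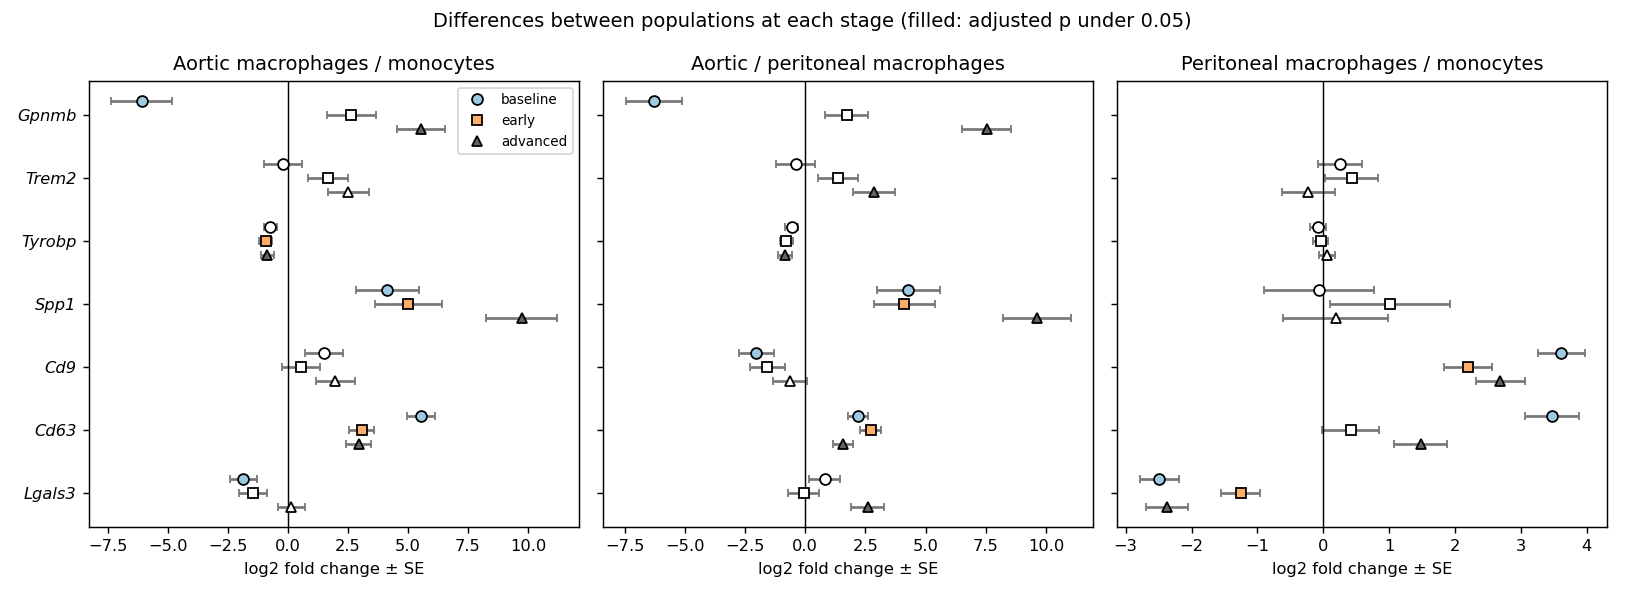
Log2 fold change ± standard error between populations at each stage, with filled symbols where adjusted p was under 0.05 and an axis range of its own for each panel. Gpnmb had negative values for aorta over monocytes and over peritoneum at baseline and positive ones at the advanced stage. No baseline library reached the filter's minimum for Gpnmb, and its baseline calls were lost at equal depth. It was too low to be tested between peritoneum and monocytes.

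Advanced aortic against peritoneal macrophages was the comparison with the most members called, 6 of 7: 5 were higher and 1 lower, where 6.97% of 10698 genes were higher and 3.53% lower. Gpnmb, 1 of the 5 higher, passed the filter in this fit only through the advanced aortic libraries, the group where it is high. Its call and its passing in further fits are thus given as a description. The log2 fold change of aorta over peritoneum was 9.63 ± 1.41, adjusted p = 1.36e-05 for Spp1 and 7.53 ± 1.02, adjusted p = 8.43e-06 for Gpnmb. For Trem2 it was 2.85 ± 0.87, adjusted p = 0.0317, from 56.8, 96.1, 141 and 124 CPM in the aorta against 8.74, 13.8, 14.2 and 18.1 CPM in the peritoneum. Lgals3 was higher as well (2.59 ± 0.68, adjusted p = 0.00997), and so was Cd63 (1.56 ± 0.41, adjusted p = 0.011). Tyrobp was the member that was lower, at 363, 238, 273 and 350.4 CPM in the aorta against 553, 454, 505 and 562 CPM in the peritoneum (-0.84 ± 0.27, adjusted p = 0.0464), and Cd9 did not pass (-0.62 ± 0.70, adjusted p = 0.877). Spp1, Gpnmb and Lgals3 passed in all 24 fits without 1 library (adjusted p up to 0.0483), whereas Cd63 failed without peritoneal advanced library 1 or 2 (up to 0.0722), Trem2 without aortic advanced library 2, 3 or 4 or any 1 peritoneal advanced library (up to 0.128), and Tyrobp without aortic early library 1 or 3, any 1 aortic advanced library, peritoneal early library 2 or peritoneal advanced library 1, 3 or 4 (up to 0.125). Under other settings, Tyrobp was lost at equal depth (0.0598), with a replicate block (0.0661) and with 1 weight per population (0.334). Trem2 was lost with a replicate block (0.0894) and Cd63 with 1 weight per population (0.0563).

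At the early stage 2 of 7 members were higher in aorta than in peritoneum and none lower, with 6.21% of genes higher. They were Cd63 (2.72 ± 0.44, adjusted p = 6.30e-05) and Spp1 (4.12 ± 1.25, adjusted p = 0.0317), of which Spp1 did not pass without aortic early library 2 or any 1 peritoneal early library (adjusted p up to 0.161). The Spp1 call was also lost with quality weights (0.448), with 1 weight per population (0.637) and without the libraries that stood apart (0.0819). Trem2 had all 4 early aortic libraries above all 4 peritoneal ones, with 30.0, 52.6, 30.4 and 44.1 CPM against 6.8, 22.7, 17.5 and 13.8 CPM, but did not pass (1.35 ± 0.83, adjusted p = 0.412). Gpnmb and Lgals3 did not pass either (1.72 ± 0.88, adjusted p = 0.28, and -0.07 ± 0.64, adjusted p = 0.981). Tyrobp (-0.78 ± 0.27, adjusted p = 0.0672) passed, as lower, without any 1 aortic baseline library or aortic early library 2 (down to 0.0117), and Cd9 (-1.58 ± 0.72, adjusted p = 0.205) without aortic baseline library 4 (0.0138). At baseline 2 of 7 were higher and 2 lower in aorta, beside 9.66% and 9.71% of all genes. Cd63 was higher (2.17 ± 0.42, adjusted p = 3.69e-04) and so was Spp1 (4.28 ± 1.30, adjusted p = 0.0198), a call that rested on aortic baseline library 2, without which the log2 fold change was 0.41 (adjusted p = 0.874), and that was also lost without any 1 peritoneal baseline library. The Cd63 call was lost with quality weights (0.0553). Gpnmb had 2.88, 1.51, 2.06 and 1.75 CPM in baseline peritoneum and no read in baseline aorta, where its level was at least 22.3-fold lower. It was tested here only because the advanced aortic libraries brought it past the filter, no baseline library of either population reaching the minimum of 4.33 CPM, so its call (adjusted p = 3.58e-04) supports nothing, and it was lost at equal depth (0.226), with quality weights (0.449) and with 1 weight per population (0.0504). Cd9 was lower in aorta, at 86.5, 41, 201 and 0.429 CPM against 259.6, 281, 307 and 328 CPM in peritoneum (-2.03 ± 0.73, adjusted p = 0.0491), and kept its call only in the fits without aortic baseline library 3 or 4 or aortic early library 1 or 3 (up to 0.103 in the others). Trem2 and Lgals3 did not pass (-0.40 ± 0.81, adjusted p = 0.813, and 0.80 ± 0.64, adjusted p = 0.451), and Lgals3 had the opposite sign without aortic baseline library 4 (-0.78). Tyrobp (-0.55 ± 0.27, adjusted p = 0.172) passed, as lower, without aortic baseline library 3 (0.0101).

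Against monocytes, advanced aortic macrophages had 3 members higher and 1 lower of 7, where 7.61% of 10696 genes were higher and 4.53% lower. Higher were Spp1 (9.74 ± 1.48, adjusted p = 2.30e-05), Gpnmb (5.54 ± 0.98, adjusted p = 2.93e-04) and Cd63 (2.94 ± 0.52, adjusted p = 1.93e-04), each in all 24 fits without 1 library. Tyrobp was lower (-0.88 ± 0.27, adjusted p = 0.0296), a call lost in 11 of those 24 fits (up to 0.107): without aortic baseline 2, early 3, advanced 2 or 3, or monocyte baseline 1, 2 or 3, early 1, or advanced 2, 3 or 4. The Tyrobp call was also lost with RLE size factors (0.0544), at equal depth (0.0661) and with 1 weight per population (0.431). Trem2 had 56.8, 96.1, 141 and 124 CPM in aorta against 24.5, 30.8, 10.7 and 12.3 CPM in monocytes, without overlap (2.51 ± 0.85, adjusted p = 0.0552), and passed without any 1 aortic baseline library (down to 0.00209) and under 8 of 10 alternatives (adjusted p 2.17e-10 to 0.166 over all). Cd9 passed without aortic baseline library 4 (0.0106, against 0.144 with it). Lgals3 did not differ beyond its spread, with 249.7, 279, 509 and 293 CPM in aorta against 277, 350.0, 297 and 354 CPM in monocytes (0.12 ± 0.56, adjusted p = 0.978).

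At the early stage 2 members were higher and 1 lower in aorta than in monocytes, beside 7.17% and 6.25% of all genes. Higher were Cd63 (3.07 ± 0.52, adjusted p = 1.28e-04) and Spp1 (5.002 ± 1.402, adjusted p = 0.0157), and lower was Tyrobp (-0.94 ± 0.27, adjusted p = 0.0182). Spp1 failed without aortic early library 2 or monocyte early library 4 (up to 0.0766), and Tyrobp without aortic early library 3 or 4 or monocyte early library 1 (up to 0.0985). With 1 weight per population both calls were lost (0.443 for Spp1 and 0.264 for Tyrobp), and that of Spp1 also with quality weights (0.179). Cd9 did not pass (0.53 ± 0.80, adjusted p = 0.797). Of the other 3, Gpnmb (2.64 ± 1.02, adjusted p = 0.0953) passed without aortic early library 2 (0.0354), Trem2 (1.65 ± 0.83, adjusted p = 0.233) without aortic baseline library 3 (0.0369) and Lgals3 (-1.48 ± 0.57, adjusted p = 0.0941) without aortic baseline library 3 or 4 (down to 0.0121). At baseline 2 were higher and 2 lower, beside 8.54% and 11.4% of all genes. Cd63 had 82.9, 240.1, 78.2 and 167 CPM in aorta against 3.4, 2.31, 4.06 and 1.65 CPM in monocytes, 49.8 times the mean level (5.55 ± 0.58, adjusted p = 8.39e-08). Spp1 was higher (4.14 ± 1.32, adjusted p = 0.026), but not without aortic baseline library 2 (0.37, adjusted p = 0.888) or monocyte baseline library 2, 3 or 4. Gpnmb, with no read in baseline aorta and 1.08, 1.43, 0.745 and 4.08 CPM in baseline monocytes, was at least 19.98-fold lower. No baseline library reached the filter's minimum of 4.54 CPM, libraries of later stages having brought the gene past it, and the call (adjusted p = 0.00112) was lost at equal depth (0.102), with quality weights (0.589) and with 1 weight per population (0.143). Lgals3 was lower (-1.87 ± 0.58, adjusted p = 0.0211), from 60.0, 45.5, 5.87 and 266 CPM in aorta against 309, 369, 299 and 384 CPM in monocytes, and missed the threshold without aortic baseline library 1 or 2 or monocyte baseline library 2 (up to 0.0746). Trem2 did not pass (-0.22 ± 0.80, adjusted p = 0.9). Tyrobp (-0.74 ± 0.27, adjusted p = 0.053) passed, as lower, without aortic baseline library 3 or aortic early library 2 or 4 (down to 0.00415), and Cd9 (1.49 ± 0.80, adjusted p = 0.221) without aortic baseline library 4 (0.0134).

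Peritoneal macrophages and monocytes differed at every stage in Cd9 and Lgals3, in opposite directions. Gpnmb was too low to be tested between them. Of the other 6 members, 2 were higher and 1 lower in peritoneum at baseline, where 26% of 10343 genes were higher and 28.1% lower. At the early stage 1 was higher and 1 lower, beside 22.2% and 21% of genes, and at the advanced stage 2 were higher and 1 lower, beside 23.8% and 25.1%. Cd9 had log2 fold changes of 3.62 ± 0.36, adjusted p = 7.53e-09 at baseline, 2.20 ± 0.36, adjusted p = 2.83e-05 at the early stage and 2.69 ± 0.37, adjusted p = 2.08e-06 at the advanced stage. Lgals3 had -2.49 ± 0.30, adjusted p = 1.34e-07, then -1.25 ± 0.29, adjusted p = 0.00132, then -2.38 ± 0.32, adjusted p = 1.15e-06. Cd63 was higher in peritoneum at baseline (3.47 ± 0.41, adjusted p = 1.27e-07) and at the advanced stage (1.48 ± 0.40, adjusted p = 0.00376), and did not pass at the early stage (0.42 ± 0.44, adjusted p = 0.471), where 14.1, 16, 36.6 and 25.4 CPM in peritoneum overlapped with 31.2, 23.1, 12.6 and 10.6 CPM in monocytes. These Cd9, Lgals3 and Cd63 calls passed in all 24 fits that left out 1 library. Trem2, Tyrobp and Spp1 did not pass at any of the 3 stages.

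The differences between stages were then compared between populations. For advanced over baseline, the log2 fold change of Gpnmb was higher in aorta than in monocytes, with a difference of 11.64 ± 1.59, adjusted p = 5.21e-04, and higher than in peritoneum (difference 13.82 ± 1.53, adjusted p = 2.43e-05). Both rest on a baseline of 0, so their size depends on the prior count and is not a bound. In the fit with peritoneum, Gpnmb passed the filter only through the advanced aortic libraries, so that call is given as a description. The log2 fold change of Cd63 between these stages was lower in aorta than in monocytes, with a difference of -2.61 ± 0.70, adjusted p = 0.0399. In values, the aorta had 156, 189, 281 and 278 CPM at the advanced stage against 82.9, 240.1, 78.2 and 167 CPM at baseline, and monocytes 13.2, 40.3, 55.8 and 12.3 CPM against 3.4, 2.31, 4.06 and 1.65 CPM. In the comparison with monocytes 1 of 7 members was thus higher and 1 lower, beside 2.6% and 0.206% of genes, and with peritoneum 1 of 7 was higher, beside 2.84%. Spp1 did not pass in either (5.60 ± 2.11, adjusted p = 0.223 with monocytes, 5.35 ± 2.11, adjusted p = 0.251 with peritoneum), although it did without aortic baseline library 2 (0.00473 and 0.00536). Trem2 likewise passed only without that library (0.0145 and 0.00907) among the fits that left out 1, and Lgals3 only without aortic baseline library 4 (0.00129 and 0.00874). The Gpnmb differences passed in all 24 fits without 1 library but not with quality weights (0.461 and 0.239), nor that with monocytes under 1 weight per population (0.112), and the Cd63 difference was lost in 12 of 24 (up to 0.148): without aortic baseline 2, any 1 aortic advanced library, any 1 monocyte baseline library, monocyte early 2 or monocyte advanced 2 or 3. The Cd63 difference was also lost at equal depth (adjusted p = 0.0638), with a replicate block (0.0720), with quality weights (0.422) and with 1 weight per population (0.209). Without the libraries that stood apart in the 2 populations compared, adjusted p was 9.52e-04 and 2.15e-05 for Gpnmb, 6.28e-04 and 0.00193 for Lgals3, and 0.116 for Cd63 against monocytes. Against peritoneum, Trem2 (2.64, adjusted p = 0.0405) and Cd9 (2.04, adjusted p = 0.0382) passed as well without those libraries.

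From the early to the advanced stage no member differed in response with edgeR. In the comparison with monocytes 0.0654% of genes passed in either direction, 1 member had an unadjusted p under 0.05 and DESeq2 called none. In that with peritoneum 0.234% of genes passed, 3 members had an unadjusted p under 0.05 and DESeq2 called 1, Gpnmb (5.28e-04, edgeR's 5.81 ± 1.28, adjusted p = 0.0563). Gpnmb also passed there without any 1 aortic baseline library or without aortic early library 1 (down to 0.0232).

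Other genes of the foam cell programme were read from lists of known function. These lists, like the members, were chosen with earlier results of these data known. A count above the share of all genes is therefore a description and not support, for these lists as for the members. Of 27 other lipid-associated macrophage genes tested in the aorta, 4 rose and none fell between advanced and baseline, where 0.534% of all genes rose and 0.0504% fell, with a median log2 fold change of 1.19 beside -0.04 over all genes. They were Ctsd, the lysosomal protease cathepsin D, at 1428 ± 255 CPM in advanced and 371 ± 83 CPM in baseline aorta (2.06 ± 0.24, adjusted p = 8.41e-05), its fellow Ctsb, cathepsin B (1.19 ± 0.20, adjusted p = 0.00432), Plin2, which coats lipid droplets (1.88 ± 0.31, adjusted p = 0.00432), and Emp1, an epithelial membrane protein (2.43 ± 0.35, adjusted p = 0.00141). Plin2 had 563 ± 91.6 CPM in advanced and 162 ± 59.7 CPM in baseline aorta (SD, n = 4 each). Between early and baseline aorta Emp1 rose (2.21 ± 0.35, adjusted p = 0.00473) and Lpl, lipoprotein lipase, fell to 285 ± 103 CPM in early libraries, against 1008 ± 281 CPM at baseline (-1.73 ± 0.32, adjusted p = 0.0166). Between advanced and early aorta only Ctsd of the 27 rose (1.68 ± 0.23, adjusted p = 0.00559).

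**Figure D5:**
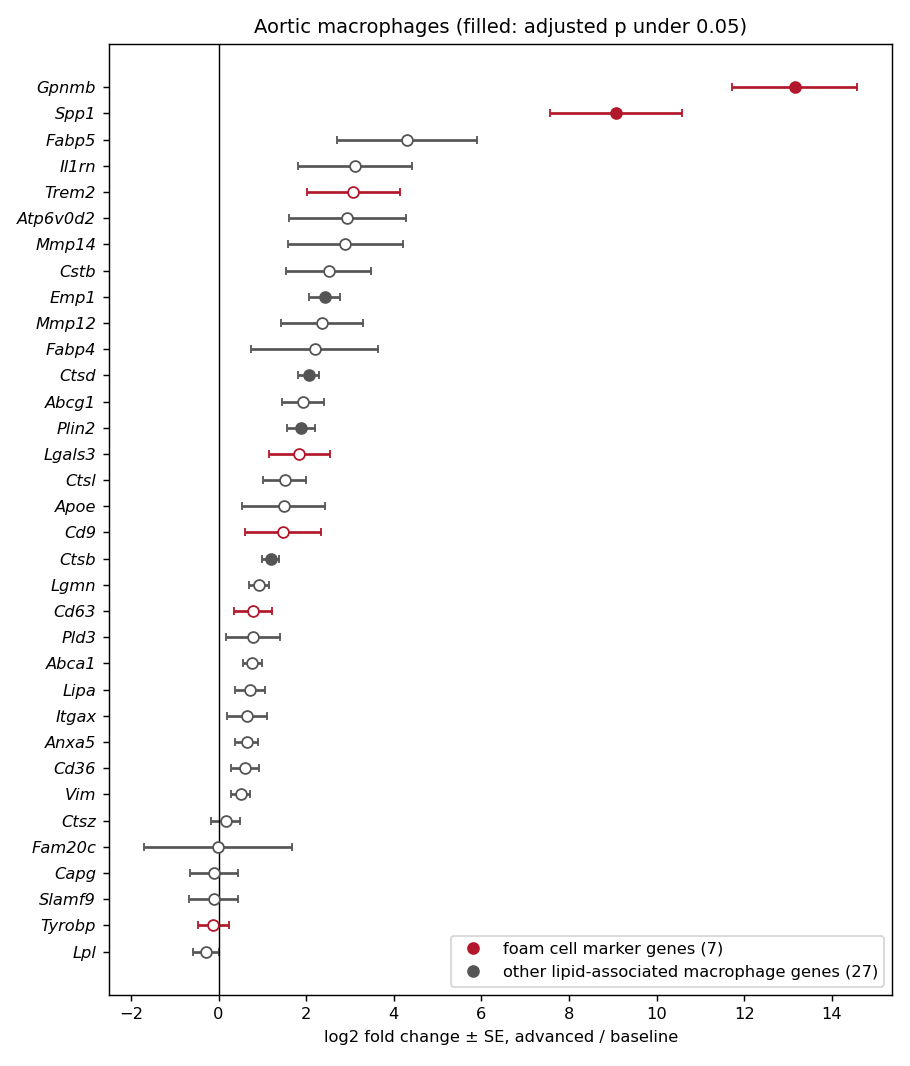
Log2 fold change ± standard error of advanced over baseline aorta for the 7 members (red) and 27 other lipid-associated macrophage genes (grey), with filled points where adjusted p was under 0.05. Gpnmb and Spp1 lie farthest to the right, and Ctsd, Emp1, Ctsb and Plin2 are the filled grey points.

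None of the signalling or partner lists had a gene that passed in the 3 aortic stage comparisons. Between advanced and baseline aorta, 0 of 13 genes of TREM2 and DAP12 signalling passed with edgeR (1 at an unadjusted p under 0.05), with a median log2 fold change of 0.01. The smallest p among them was that of Ms4a6d, of the MS4A membrane protein family, whose human locus is associated with soluble TREM2 levels (1.28 ± 0.36, adjusted p = 0.121). Likewise 0 of 9 other DAP12-coupled receptors and activation-motif adaptors passed (2 unadjusted), 0 of 4 MiT/TFE factors (0 unadjusted), 0 of 7 osteopontin receptors (1 unadjusted), 0 of 11 other tetraspanins (1 unadjusted) and 0 of 4 other galectins (0 unadjusted). Itga4, an integrin subunit that binds osteopontin, had a log2 fold change of -1.01 ± 0.28, adjusted p = 0.121.

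In monocytes more of these lists held genes that passed between advanced and baseline, in a population where 9.24% of all genes rose and 9.75% fell, and most of the small lists' counts are near those shares. Of 24 other lipid-associated genes 6 rose and none fell (median 0.26), among them Cstb, the protease inhibitor cystatin B (1.17 ± 0.16, adjusted p = 3.04e-04), Plin2 (1.12 ± 0.18, adjusted p = 9.09e-04), the cholesterol exporter Abca1 (0.97 ± 0.18, adjusted p = 0.0023) and the membrane metalloprotease Mmp14 (1.68 ± 0.42, adjusted p = 0.0129). Of 13 signalling genes 1 rose, Ms4a6d (1.20 ± 0.29, adjusted p = 0.0111), and 2 fell, the phosphatase gene Inpp5d (-0.40 ± 0.10, adjusted p = 0.0102) and the phospholipase gene Plcg2 (-0.36 ± 0.09, adjusted p = 0.0151). Of 9 DAP12-coupled receptors and adaptors, Clec5a rose (1.48 ± 0.29, adjusted p = 0.00277). Of the 4 MiT/TFE factors, Tfec rose (1.18 ± 0.32, adjusted p = 0.0192) and Tfeb (-0.88 ± 0.13, adjusted p = 6.74e-04) and Tfe3 (-0.46 ± 0.14, adjusted p = 0.0305) fell. Itgb1 rose among 7 osteopontin receptors (0.31 ± 0.10, adjusted p = 0.0425), and none of 10 other tetraspanins or 4 other galectins passed (2 and 0 unadjusted). Neutrophil markers, given above, were also higher in these libraries than at baseline.

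Between early and baseline monocytes, 4 of the 24 lipid-associated genes rose, where 5.74% of all genes did: Abca1 (1.058 ± 0.18, adjusted p = 0.00222), Plin2 (0.77 ± 0.18, adjusted p = 0.013), Cstb (0.58 ± 0.16, adjusted p = 0.0275) and the cathepsin gene Ctsl (1.057 ± 0.30, adjusted p = 0.0357). In peritoneal macrophages none of the 22 lipid-associated genes tested passed between advanced and baseline (8 unadjusted, median 0.15), nor did a gene of the other lists. The 1 lipid-associated gene that rose between early and baseline peritoneum was Vim, vimentin (0.69 ± 0.14, adjusted p = 0.0315), beside the osteopontin receptor gene Itga5 (0.88 ± 0.20, adjusted p = 0.0421), and Vim fell between advanced and early (-0.63 ± 0.14, adjusted p = 0.0482). These comparisons include the 2 early libraries that stood apart.

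Between populations at the advanced stage, 15 of 28 lipid-associated genes were higher and 2 lower in aorta than in peritoneum, where 6.97% of all genes were higher and 3.53% lower. Against monocytes 15 of 27 were higher and none lower, where 7.61% and 4.53% of all genes were. Emp1 (3.85 ± 0.35, adjusted p = 1.22e-08) and Mmp12, the macrophage metalloelastase (11.54 ± 1.53, adjusted p = 3.50e-06), were among those higher than in peritoneum, and Apoc1, an apolipoprotein gene (-6.06 ± 1.32, adjusted p = 0.00193), and the fatty acid binding protein gene Fabp4 (-3.45 ± 0.88, adjusted p = 0.00825) were the 2 lower ones. Lgmn, legumain (2.78 ± 0.22, adjusted p = 3.70e-10), and Ctsd (2.83 ± 0.24, adjusted p = 1.85e-09) were among those higher than in monocytes. Among the tetraspanins, Cd81 was higher in aorta than in peritoneum (1.12 ± 0.23, adjusted p = 0.00129) and than in monocytes (4.79 ± 0.37, adjusted p = 3.27e-10), and Lgals1, the galectin-1 gene, was higher than in both (3.87 ± 0.53, adjusted p = 5.85e-06, and 1.71 ± 0.40, adjusted p = 0.00391). For advanced over baseline, the log2 fold changes of Ctsd and Ctsb were higher in aorta than in monocytes (differences 1.36 ± 0.32, adjusted p = 0.0188, and 1.05 ± 0.23, adjusted p = 0.0137) and than in peritoneum (differences 1.78 ± 0.28, adjusted p = 0.00114, and 1.17 ± 0.24, adjusted p = 0.00697).

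The genes whose levels followed each member most closely over the 12 aortic libraries were taken as the 3 with the highest Pearson r of log2(CPM + 1) among 9920 genes. For Gpnmb they were Abca5 (0.957), Mpeg1 (0.943) and Src (0.941). Trem2 was most like Tnfsf9 (0.952), Egr3 (0.944) and Jmy (0.933). Spp1 had Ctsd (0.92), Hilpda (0.913) and Fbxo32 (0.912), of which Ctsd also rose by stage and Hilpda encodes a lipid droplet protein. Lgals3 had Skil (0.972), Nceh1 (0.941) and Plau (0.934), of which Nceh1 encodes a hydrolase of cholesterol esters. Cd9 had Slc11a1 (0.966), Atp6ap1 (0.94) and Acadl (0.927), Cd63 Errfi1 (0.904), Mtmr10 (0.89) and Sbno2 (0.865) and Tyrobp Tysnd1 (0.871), Scand1 (0.868) and Bri3 (0.862). Each r describes 12 points that share 3 stages and their depth, was picked as the highest of many, and has no test.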

How the data were processed

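Libraries were made with the Ovation SoLo kit and read in pairs (NextSeq500), as given in the labels' protocols. The deposited files hold raw counts, whole numbers of reads for each gene, made with STAR and featureCounts on mm10 per the submitters' processing notes. Versions and the use of strand are not given in the sources used here. The members and lists were chosen with earlier results of these data known. All tests were edgeR's quasi-likelihood test (4.0.16, R 4.3.3), two-sided, after filterByExpr and TMM scaling, with Benjamini-Hochberg adjustment over all genes tested and a threshold of 0.05. Values after ± are standard errors, taken as the size of the log2 fold change divided by the root of F. Each stage comparison used the 12 libraries of 1 population, and each comparison of populations or of their stage differences the 24 libraries of 2. Levels in CPM were scaled by total counts alone. The members that passed are named in each comparison with their values, those not named in one did not pass, and the fold changes of all members tested are plotted. Named from the other lists were genes among the smallest p in each direction, up to 4 (up to 2 where none passed). Variation between libraries beyond counting error, as a coefficient, came to 109.7% for aortic, 19.1% for monocyte and 21.2% for peritoneal libraries, and may be technical.

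Other settings tried were size factors by RLE, no filter, DESeq2 (1.42.0), limma-voom (3.58.1) with quality weights or with 1 weight per population, thinning to 942899 reads, the replicate number as a block, all 36 libraries in one fit, and leaving libraries out in turn. After seeing the data, 2 more were added, without Rn45s (ribosomal RNA, 4.74 to 19.8% of reads) and without 6 libraries that stood apart: aortic baseline 3 and 4, aortic advanced 1, monocyte advanced 3, and peritoneal early 1 and 2. The scripts were tested on simulated counts. Intervals and floors cover counting error only.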

Additional observations from a re-analysis of the deposited data

Results flagged for a closer look

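A library was picked out where its gap to the nearest other library, as a share of its group's range, exceeded Dixon's 95% critical value. Of 62 groups of 4 libraries examined for the 7 genes, 4 had such a library, and chance alone picks out about 1 in 20 groups. Spp1 was at 24.6 CPM in aortic baseline library 2, against 0 to 1.07 CPM in the other 3. It was at 4.25 CPM in monocyte early library 2, against 0 to 0.63 CPM in the others, and at 0 CPM in peritoneal baseline library 3, against 0.324 to 0.349 CPM. Lgals3 was at 509 CPM in aortic advanced library 3, against 249.7 to 293 CPM in the other 3 advanced ones. 3 differences of response between populations passed their test, all for advanced over baseline: Gpnmb by 11.64 on the log2 scale for aorta over monocytes, Gpnmb by 13.82 for aorta over peritoneum and Cd63 by -2.61 for aorta over monocytes. None of the 3 held under every setting, and the Cd63 difference was also lost at equal depth, as given above.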

How the results depend on the processing

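No fold change that passed as reported or under an alternative changed sign between them. Of 139 results of members, 31 that did not pass had the opposite sign in 97 fits, 64 of them without 1 library. Examples are Lgals3 for aorta over peritoneum at baseline, 0.80 against -0.28 without the libraries that stood apart, and Cd9 for aorta over monocytes at baseline, 1.49 against -0.48 with 1 weight per population. Leaving out 1 library kept 2587 of the members' results on their side of the threshold, brought 43 past it and lost 94, and the other settings kept 1200, brought 74 past and lost 47. The counts of members called, 1, 0 and 2 in the aorta for early over baseline, advanced over early and advanced over baseline, moved by over 1.5 times as follows. With quality weights they were 0, 4 and 1, at equal depth 0 and 2 for the first and second, without a filter 2 and 2, in one fit of all 36 libraries 2, 2 and 4, and for advanced over early 1 with DESeq2, 1 with a replicate block and 2 without the libraries that stood apart. In monocytes, early over baseline had 1 and 2 with DESeq2, and advanced over baseline 1, with 2 under quality weights and 3 without a filter. In the peritoneum, early over baseline had 0, with 2 under DESeq2, 2 without a filter and 1 with quality weights. Advanced over early had 1, with 2 under DESeq2, 0 in one fit of all and 0 without the libraries that stood apart. Advanced over baseline had 1, with 2 without a filter, 2 without those libraries, 0 in one fit of all and 0 with a replicate block. Of the peritoneal members tested as reported, Cd63 alone passed there without those libraries, so the other member called was Gpnmb or Spp1. Aorta against monocytes had 4 at baseline, with 2 at equal depth and 2 with quality weights, and 3 at the early stage, with 1 under 1 weight per population and 6 without the libraries that stood apart. Aorta against peritoneum had 4 at baseline, with 2 at equal depth and 0 with quality weights, and 2 at the early stage, with 1 under 1 weight per population. Peritoneum against monocytes had 2 at the early stage and 1 in one fit of all. Responses of advanced over baseline numbered 2 for aorta against monocytes, with 1 at equal depth, 1 with a replicate block, 0 with quality weights and 0 with 1 weight per population, and 1 for aorta against peritoneum, with 2 under DESeq2, 2 in one fit of all, 0 with quality weights and 4 without the libraries that stood apart. Responses of advanced over early numbered 0, with 1 without those libraries for monocytes, and for peritoneum 1 with DESeq2, 1 without a filter, 1 in one fit of all and 2 with quality weights. Counts over all genes moved too: in the aorta 37, 4 and 58 genes passed in the order above, with lows of 28, 4 and 50 under the replicate block and highs of 2113, 320 and 1816 in one fit of all libraries, which shares the spread of the less variable populations. Where not shown above, the cause was not tested.

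Without 1 library, the counts ran from 1 to 2, 0 to 2 and 2 to 3 in the aorta in the order above, 1 to 2, 0 to 0 and 1 to 2 in monocytes and 0 to 2 each in the peritoneum. Aorta against monocytes had 2 to 5 at baseline and early stages and 3 to 6 at the advanced stage, aorta against peritoneum 2 to 5, 1 to 4 and 3 to 6, and peritoneum against monocytes 3, 2 and 3 throughout. Responses of advanced over baseline ran from 1 to 3 for both, and of advanced over early from 0 to 0 and 0 to 1. RLE size factors moved the median of all genes by 0.10 for aorta against monocytes at baseline and by -0.12 for aorta against peritoneum at the early stage, and changed no member's sign. The replicate numbers were not taken to pair the libraries, since no set of pairs had every correlation over 0.1: deviations of same-numbered libraries correlated between -0.03 and 0.03 across stages in the aorta, -0.29 and 0.11 in monocytes and -0.16 and 0.11 in the peritoneum, and across populations between -0.03 and 0.08 for aorta and monocytes, -0.03 and 0.04 for aorta and peritoneum and -0.06 and 0.23 for peritoneum and monocytes, where 4 of 12 pairs were over 0.1. The block counts above thus describe a shared number only. The 4 libraries per group and the aortic spread limit what can be seen there, and an adjusted p above 0.05 in the aorta does not show that a gene was unchanged. Depth of 942899 to 2628766 reads in early and advanced libraries limits Gpnmb and Spp1 outside the aorta, where they were too low to be tested between stages in the reported fits.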
